A study of Gallus gallus with 22 samples.

Results

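*SLC9A3* and *SLC9A4* encode sodium-proton exchangers, and they are 2 of the 17007 genes in the count table. They were picked by name, as rows ENSGALG00010007655 (*SLC9A3*) and ENSGALG00010013886 (*SLC9A4*). The questions were how far the jejunum exceeded the pancreas in each gene, whether either gene differed between the diets in either tissue, and whether the pair varied together between broilers.

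Exchangers of the SLC9 family sit in membranes and carry sodium into the cell while a proton leaves it, which regulates cell pH, cell volume and sodium uptake. In mammals, SLC9A3 (NHE3) lies in the brush border of the absorptive cells of the small intestine and of kidney tubules, where it takes up sodium from the lumen and water follows. SLC9A4 (NHE4) is best known from the basolateral membrane of acid-secreting cells of the mammalian stomach and from the kidney. The pancreas is mostly acinar tissue that makes digestive enzymes, with ducts that secrete bicarbonate and islets that secrete hormones.

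Male broilers of a commercial meat strain were sampled on d 24, and RNA of proximal jejunum and of pancreas was sequenced. Control broilers ate a coarsely ground corn diet with 0% sugarcane bagasse (SB), the fibrous residue of sugarcane, and SB-fed broilers ate the same diet with 2% SB added on top of the complete feed. The groups shared strain, sex, age and base diet, and 1 broiler per pen gave both tissues. The 22 libraries comprised 5 jejunum control, 6 jejunum SB, 6 pancreas control and 5 pancreas SB libraries, since the authors had excluded outlier samples. They describe these as far from their own diet group, with lower performance (pancreas) or higher RNA concentration (jejunum). Exclusion therefore took the diets into account. The p-values of diet comparisons below, those of exact permutation tests included, make no allowance for that. Broilers are named here by the number in the column labels. Of these numbers, 10 occurred in both tissues (5 per diet), and they are read here as the same animal, which the sources do not state outright.

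Total counts per library ranged from 42540952 to 203039911 in the jejunum and from 65957320 to 300479804 in the pancreas. These totals are several times the mean numbers of clean reads that the study states for the same groups, and what accounts for the gap is not given in the sources used here. A count can therefore not be taken as an independent read. Expression is given as normalized CPM, the counts of a gene relative to the library total, with library totals corrected by TMM factors (trimmed mean of M-values) computed over all 22 libraries. The scaling factors were 1.66 to 1.96 in the jejunum and 0.461 to 0.732 in the pancreas, so levels set across tissues rest on this scaling. Even numbers made up 62.7% to 69.4% of the counts between 1 and 59 in a library, and how mates of a read pair were counted is not given in the sources used here. Counting intervals below are exact 95% Poisson intervals that treat each count as independent, so they are too narrow where reads were counted more than once, and they cover counting error only. No 2 replicates of a group were copies, since the chi-square between their counts was at least 50.2 per gene. In whole tissue, fewer cells of a type and less RNA per cell cannot be told apart.

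By symbol, the RefSeq annotation of GRCg7b, the assembly of the authors' alignment, places *SLC9A3* on chromosome 2 from 55391772 to 55458047 and *SLC9A4* on chromosome 1 from 134052428 to 134087008. The span of *SLC9A3* overlaps 1 other annotated gene and that of *SLC9A4* overlaps 2. *SLC9A2*, which encodes another exchanger of the family, starts 19670 bp beyond the end of *SLC9A4*. Libraries were prepared with a stranded kit, but the strand setting of the counting is not given in the sources used here, so reads of overlapping genes may be mixed.

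*SLC9A3* was abundant in the jejunum and low in the pancreas, where 3 of 6 control libraries stood below 1 CPM. In the jejunum of control broilers it stood at 214 CPM in broiler 9, 149 in broiler 17, 189 in broiler 32, 76.2 in broiler 39 and 225 in broiler 47. In the jejunum of SB-fed broilers it stood at 82.5 CPM in broiler 3, 150.2 in broiler 11, 139 in broiler 19, 136 in broiler 26, 261 in broiler 34 and 109.9 in broiler 41. Broilers 39 and 3 were the lowest of their groups, and broiler 34 was the highest of all 11. In the pancreas of control broilers, the level was 0.205 CPM in broiler 1, 0.891 in broiler 17, 1.95 in broiler 32, 1.19 in broiler 39, 0.162 in broiler 47 and 2.25 in broiler 9. In the pancreas of SB-fed broilers, it was 5.06 CPM in broiler 3, 2.76 in broiler 11, 1.32 in broiler 26, 10.1 in broiler 34 and 2.86 in broiler 41. The jejunum and pancreas libraries did not overlap. The lowest pancreas level, in broiler 47, rested on 5 counts (95% interval 0.0527 to 0.379 CPM) and the highest on 931.

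*SLC9A4* was low in both tissues. In the jejunum of control broilers it stood at 4.88 CPM in broiler 9, 4.82 in broiler 17, 5.17 in broiler 32, 3.04 in broiler 39 and 6.27 in broiler 47. In the jejunum of SB-fed broilers it stood at 1.12 CPM in broiler 3, 4.48 in broiler 11, 5.02 in broiler 19, 5.51 in broiler 26, 2.93 in broiler 34 and 3.97 in broiler 41. Broiler 3 had the lowest jejunum level of the 11, on 105 counts. In the pancreas of control broilers, the level was 0.102 CPM in broiler 1, 0.124 in broiler 17, 0.828 in broiler 32, 0.0765 in broiler 39, 0.325 in broiler 47 and 0.354 in broiler 9. In the pancreas of SB-fed broilers, it was 5.62 CPM in broiler 3, 2.77 in broiler 11, 0.504 in broiler 26, 0.119 in broiler 34 and 0.795 in broiler 41. The pancreas of broiler 3 exceeded the jejunum of 10 of the 11 broilers measured there, and the pancreas of broiler 34 was as low as the control libraries. Pancreas counts ran from 4 in broilers 1 and 39 (95% interval 0.0208 to 0.196 CPM in broiler 39) to 806 in broiler 3.

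**Figure D1:**
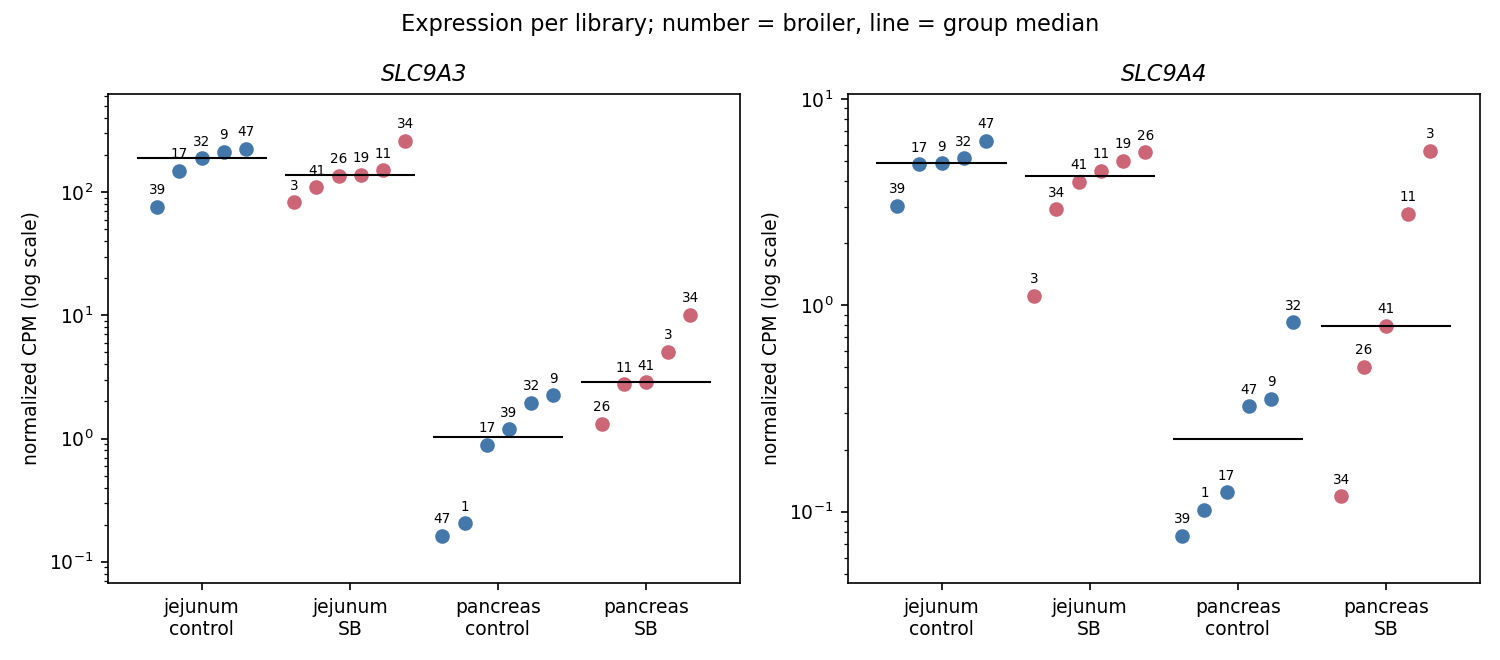
Normalized CPM of *SLC9A3* and *SLC9A4* in each of the 22 libraries (log axes), by tissue and diet. Each point is 1 library, labelled with its broiler, and lines are group medians. *SLC9A3* separates the tissues in each library, with jejunum levels from 76.2 to 261 CPM and pancreas levels from 0.162 to 10.1 CPM, whereas the *SLC9A4* levels of pancreas libraries 3 and 11 reach into the jejunum range.

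Between tissues, *SLC9A3* was higher in the jejunum under both diets. The mean level of control broilers was 171 CPM ± 60.2 (SD, n = 5) in the jejunum and 1.11 CPM ± 0.869 (SD, n = 6) in the pancreas, a log2 fold change of 7.21 (SE 0.64, 148-fold, adjusted p = 2.74e-09, edgeR quasi-likelihood test with Benjamini-Hochberg adjustment over 15032 genes). In SB-fed broilers, the means were 146 CPM ± 61.2 (SD, n = 6) and 4.41 CPM ± 3.43 (SD, n = 5), a log2 fold change of 5.04 (SE 0.61, 32.8-fold, adjusted p = 3.23e-07, edgeR). A tissue call required a log2 fold change of 1 or more in either direction with an adjusted p under 0.05, and 39.6% of genes passed in control and 38.5% in SB-fed broilers. Passing in the direction of the jejunum was common, at 20.5% and 21.1% of genes. Nor was complete separation of the tissues rare, since 20.9% of genes had each jejunum library above each pancreas library.

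*SLC9A4* was higher in the jejunum of control broilers, whereas no tissue difference was called in SB-fed broilers. The control means were 4.84 CPM ± 1.16 (SD, n = 5) and 0.302 CPM ± 0.283 (SD, n = 6), a log2 fold change of 3.99 (SE 0.72, 15.9-fold, adjusted p = 5.56e-05, edgeR). In SB-fed broilers, the means were 3.84 CPM ± 1.60 (SD, n = 6) and 1.96 CPM ± 2.29 (SD, n = 5), and the log2 fold change was 0.93 (SE 0.62, 95% interval -0.37 to 2.22, adjusted p = 0.194, edgeR). Broiler 3 decided that value, because without its pancreas library (pancreas SB replicate 1) the fold change was 1.82 and passed (adjusted p = 0.0131, edgeR). With library totals in place of TMM factors it was 2.43 and passed as well (adjusted p = 0.00216, edgeR), but that scaling moved the median of all genes from 0.05 to 1.73. With the broiler number as a block in the 10 broilers with both tissues, it was 1.70 and did not pass (adjusted p = 0.101, edgeR).

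Within single broilers, *SLC9A3* was higher in the jejunum in 10 of 10. The jejunum exceeded the pancreas 64.3-fold to 1384-fold in the control broilers and 16.3-fold to 103-fold in the SB-fed broilers. The mean log2 difference was 6.31 (two-sided exact sign-flip permutation test, p = 0.00195, the smallest that 10 broilers allow). The highest ratio belonged to broiler 47, whose pancreas count was the lowest. *SLC9A4* was higher in the jejunum in 9 of 10 broilers, 6.24-fold to 39.8-fold in the control broilers and 1.62-fold to 24.6-fold in 4 of 5 SB-fed broilers. In broiler 3 the order was turned, and the pancreas stood 5.04-fold above the jejunum. The mean log2 difference of *SLC9A4* was 2.90 (two-sided exact sign-flip permutation test, p = 0.00781).

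**Figure D2:**
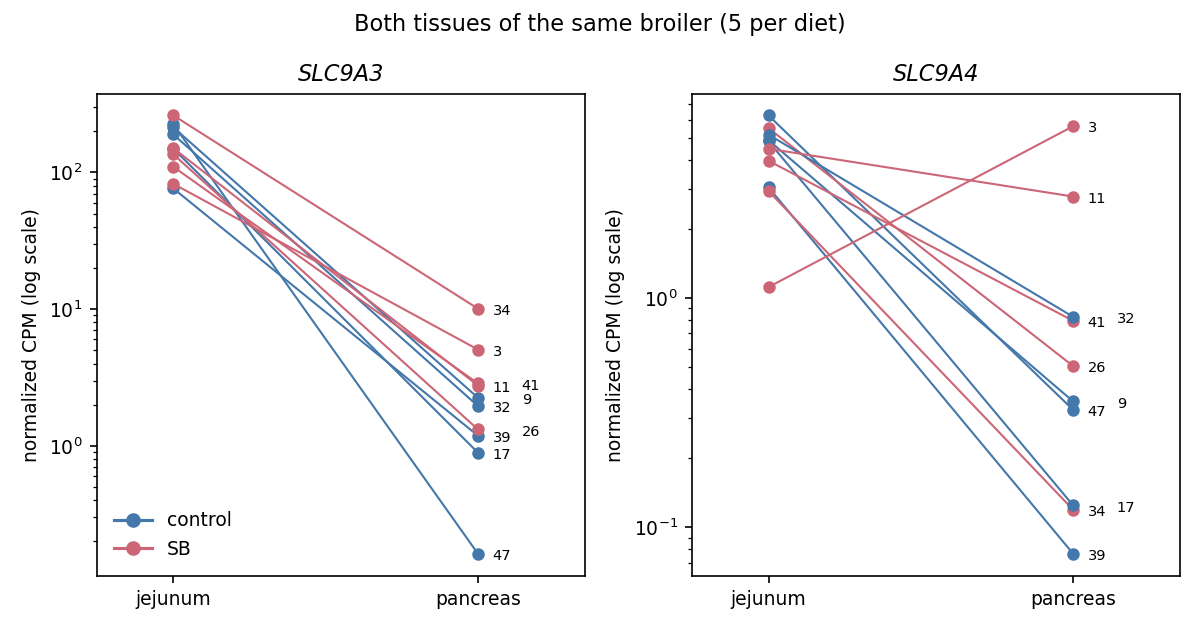
Normalized CPM (log axes) of both genes in the jejunum and pancreas of the 10 broilers with both libraries, with a line for each broiler and its number beside the pancreas point. Each *SLC9A3* line falls from jejunum to pancreas, by 16.3-fold to 1384-fold. For *SLC9A4*, the line of broiler 3 climbs 5.04-fold and the other 9 fall.

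In the jejunum, neither exchanger differed between the diets beyond the spread of the broilers. The log2 fold change, SB minus control, was -0.23 for *SLC9A3* (SE 0.30, 95% interval -0.88 to 0.41) and -0.34 for *SLC9A4* (SE 0.32, 95% interval -1.05 to 0.36). Adjusted p was 1.00 for both genes over 14488 genes tested with edgeR. Of the 6 SB libraries, 5 lay within the control range for *SLC9A3* and 4 for *SLC9A4*, with broilers 3 and 34 below it. The intervals exclude a doubling or a halving of *SLC9A3* under SB and, for *SLC9A4*, a doubling only. Exact permutation tests over the 11 libraries gave p = 0.548 and p = 0.327 (two-sided, smallest possible p = 0.00216). The study's thresholds for a differentially expressed gene (DEG), a log2 fold change of 1 or more in either direction with an unadjusted P under 0.05, were passed by 0.338% of genes in the jejunum and by 0 of these 2. No gene passed after adjustment in edgeR, DESeq2 or limma-voom (0 genes each), while 286 (1.97%) had an unadjusted P under 0.05 in edgeR.

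In the pancreas, both exchangers were higher in SB-fed broilers by the study's thresholds. *SLC9A3* had a log2 fold change of 1.89 (SE 0.61, 3.71-fold, 95% interval 0.55 to 3.23), and *SLC9A4* had one of 2.72 (SE 0.89, 6.61-fold, 95% interval 0.78 to 4.66). After adjustment over 14116 genes, neither passed (adjusted p = 0.995 for both, edgeR). The thresholds were passed in the direction of SB by 0.659% of all genes tested and in either direction by 1.10%. The study had listed both genes as DEGs from these same libraries, so these values are not independent evidence of a diet difference. After adjustment, edgeR and limma-voom called 0 genes and DESeq2 called 15, with neither exchanger among them, while 543 genes (3.85%) had an unadjusted P under 0.05 in edgeR.

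The diets overlapped in the pancreas in both genes. For *SLC9A3*, 4 of 5 SB libraries stood above the highest control library and the lowest SB library, broiler 26, lay among the controls. For *SLC9A4*, broilers 3 and 11 stood above the highest control, and the other 3 SB libraries lay within the control range. Full separation, each SB library above each control library, was seen in 0.205% of genes. Exact permutation tests of mean log2 CPM gave p = 0.0281 for *SLC9A3* and p = 0.0714 for *SLC9A4* (two-sided, smallest possible p = 0.00216). The tested differences were 2.20 (4.61-fold) for *SLC9A3* and 2.04 (4.12-fold) for *SLC9A4*, the reverse of the order in the edgeR fit. Without broiler 34 (pancreas SB replicate 4) or broiler 3 (pancreas SB replicate 1), the *SLC9A3* permutation p was 0.0762 or 0.0667. Without broiler 34 or broiler 32 (pancreas control replicate 3), that of *SLC9A4* was 0.0238 or 0.0476, the only 2 of 11 such cases under 0.05. Without broiler 3, which held the highest *SLC9A4* level, it was 0.167, the highest of the 11.

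Different SB-fed broilers held the highest pancreas levels of the pair. Broiler 34 held the highest *SLC9A3* level of the pancreas, and without it the log2 fold change of *SLC9A3* was 1.33 and still passed the study's thresholds. Broiler 3 held the highest *SLC9A4* level, and without it the log2 fold change of *SLC9A4* was 1.86 and still passed them. With limma-voom, *SLC9A4* no longer passed them (log2 fold change 2.36), whereas *SLC9A3* did (1.94). Total counts also differed by diet in the pancreas, with a median of 186019684 in SB and 74145354.5 in control libraries. When the libraries were thinned at random to the smallest total of the tissue, the log2 fold changes were 1.95 and 2.74.

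**Figure D3:**
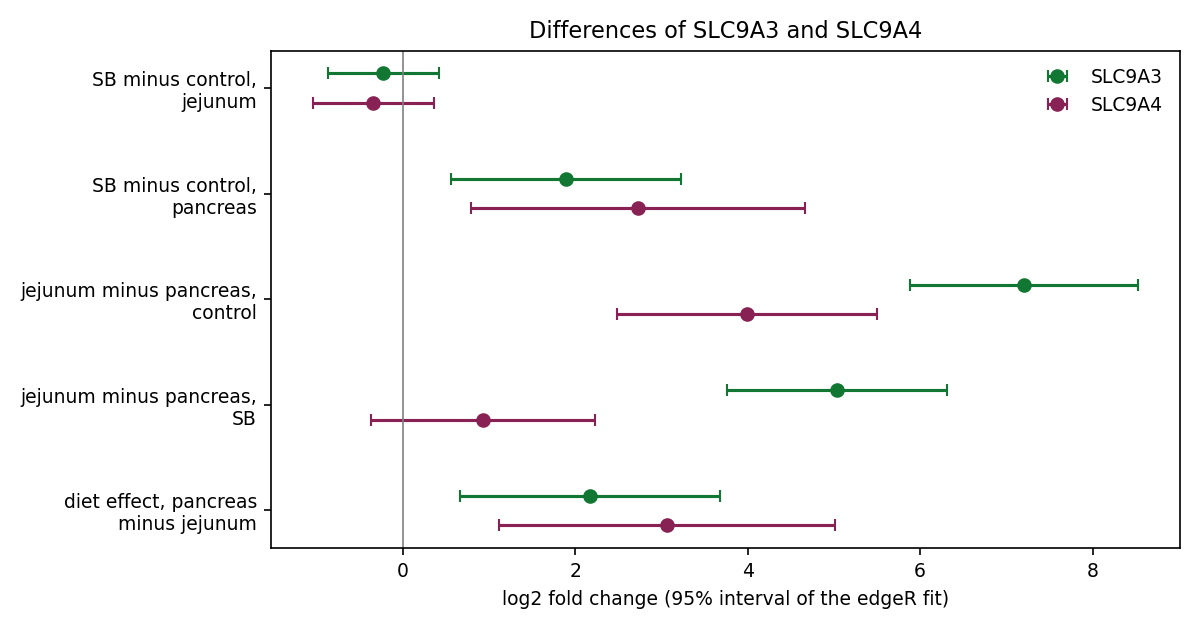
Log2 fold changes of *SLC9A3* and *SLC9A4* in 5 comparisons, with 95% intervals of the edgeR fits. The diet differences in the jejunum (-0.23 and -0.34) have intervals across 0, those in the pancreas (1.89 and 2.72) do not, and *SLC9A4* has the only tissue interval across 0 (0.93, SB-fed broilers).

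An interaction term compared the diet effect of the pancreas with that of the jejunum. Neither exchanger passed after adjustment, although both had an unadjusted P under 0.05. The study had listed both genes as DEGs from these same pancreas libraries, so low unadjusted p-values were favoured here. The interaction and the within-broiler diet differences below are therefore not independent evidence of a diet difference. The difference between the tissues in the diet effect, pancreas minus jejunum, was 2.17 on the log2 scale for *SLC9A3* (SE 0.72, 95% interval 0.66 to 3.68, adjusted p = 1.00, edgeR). For *SLC9A4* it was 3.06 (SE 0.93, 95% interval 1.12 to 5.01, adjusted p = 1.00, edgeR). It was 2.17 for *SLC9A4* without the pancreas library of broiler 3 (pancreas SB replicate 1) and 2.28 with the broiler number as a block, where its unadjusted P was no longer under 0.05. No gene passed after adjustment in edgeR (0%), DESeq2 called 1, which was neither exchanger, and 521 genes (3.47%) had an unadjusted P under 0.05 in edgeR. Within broilers, the jejunum-to-pancreas difference of SB-fed broilers was smaller than that of control broilers by a log2 difference of -2.07 for *SLC9A3* (two-sided exact permutation test, p = 0.0317) and of -2.42 for *SLC9A4* (two-sided exact permutation test, p = 0.0794). Leaving out 1 broiler at a time put p above 0.05 for *SLC9A3* in 5 of 10 cases, up to 0.0714, and below it for *SLC9A4* only without broiler 34, at 0.0238.

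The ratio of the 2 gene counts within a library does not depend on how libraries are scaled. The log2 ratios tested below depend on it slightly, since they were taken from log2 CPM with a prior count of 2. The ratio of *SLC9A3* to *SLC9A4* counts is not corrected for transcript length, so it is compared only between libraries. In the jejunum it ran from 25.1 to 43.7 in control broilers and from 24.6 to 89.1 in SB-fed broilers, with broilers 34 (89.1) and 3 (73.9) apart from the rest. In the pancreas it ran from 0.50 in broiler 47 to 15.5 in broiler 39 in control broilers, and from 0.90 in broiler 3 to 84.6 in broiler 34 in SB-fed broilers. Ratios of broilers 47, 39 and 34 rested on few *SLC9A4* counts (10, 4 and 11), and that of broiler 47 on 5 *SLC9A3* counts. Such pancreas ratios are imprecise. The balance was shifted towards *SLC9A3* in the jejunum by a mean log2 difference of 3.41 within broilers (two-sided exact sign-flip permutation test, p = 0.00195, the smallest that 10 broilers allow). Between diets the log2 ratio differed by 0.24 in the jejunum (exact permutation test, p = 0.513) and by 0.16 in the pancreas (exact permutation test, p = 0.909). With a prior count of 0.5, the pancreas value was 0.13 (exact permutation test, p = 0.926). In broiler 34 the ratio was high in both tissues, whereas broiler 3 was high in the jejunum and low in the pancreas.

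Whether the pair varied together was examined after the mean of each diet was taken off, and 4 relations were computed. In the jejunum, Pearson's r of log2 CPM was 0.52 over 11 broilers (exact permutation p = 0.123, adjusted over the 4 relations 0.492) and Spearman's rho was 0.29 (exact permutation p = 0.386). The relation rested on single broilers. Without broilers 39 and 34, the farthest from the median of *SLC9A3*, r was 0.81 (exact permutation p = 0.0139), and without broiler 34 alone (jejunum SB replicate 5) it was 0.72 (exact permutation p = 0.00278). Without broilers 39 and 3, the pair low in both genes, r was -0.48 (exact permutation p = 0.310). Thus 9 of the 11 libraries gave either sign, depending on which were kept.

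In the pancreas no relation of the pair was detected, with r = 0.05 (exact permutation p = 0.884) and rho = 0.05 (exact permutation p = 0.882) over 11 broilers. Without broilers 47 and 1, r was -0.01 (exact permutation p = 0.990). Here too the value depended on single broilers, since r was 0.44 without broiler 34 (pancreas SB replicate 4, exact permutation p = 0.193) and 0.41 without broilers 34 and 9 (exact permutation p = 0.285), and it turned negative in 5 of the 11 fits that left out 1 library. Without taking off the diet means, r was 0.40 (exact permutation p = 0.445). Broiler 3 was high in both genes, while broiler 34 had the highest *SLC9A3* with a *SLC9A4* level among the lowest. Broiler 11 was high in *SLC9A4*, but its *SLC9A3* (2.76 CPM) lay below the SB median of 2.86 CPM. Between tissues of the same broiler, r was 0.05 for *SLC9A3* (exact permutation p = 0.887, rho = 0.18 with p = 0.657) and -0.23 for *SLC9A4* (exact permutation p = 0.649, rho = 0.13 with p = 0.763). Without the 2 broilers farthest from the median, these were -0.39 (broilers 39 and 34) and 0.50 (broilers 3 and 39), with exact permutation p = 0.299 and p = 0.321. Adjusted over the 4 relations, p for r was 0.887 in these 3 cases.

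**Figure D4:**
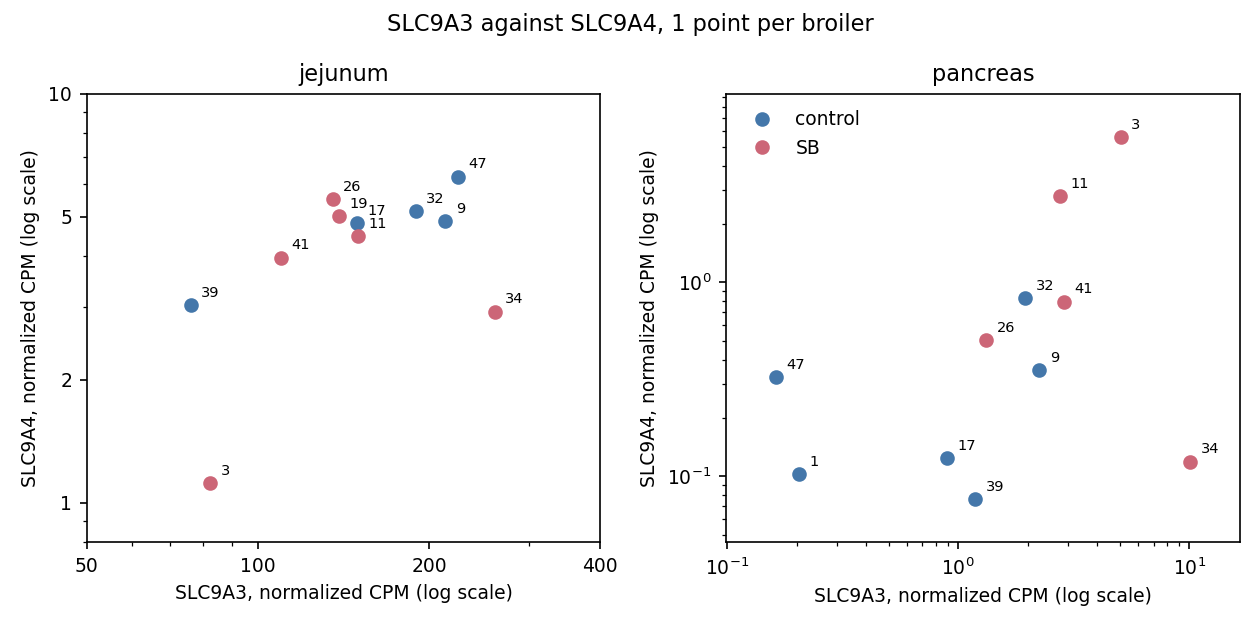
*SLC9A4* against *SLC9A3* (normalized CPM, log axes) in the jejunum and the pancreas, 1 point per broiler, coloured by diet and labelled with the broiler. In the jejunum (r = 0.52 after diet means were taken off), broilers 39 and 3 lie low and broiler 34 lies to the right of the rest. In the pancreas (r = 0.05), broilers 3 and 34 lie at opposite ends of the *SLC9A4* axis of the SB group.

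Each exchanger had many genes that followed it more closely than the other exchanger did. In the jejunum, 27.0% of 12536 genes with a mean of at least 1 CPM had a higher r with *SLC9A3* than *SLC9A4* had, and 21.9% had a higher r with *SLC9A4* than *SLC9A3* had. In the pancreas, these shares were 45.4% and 41.4% of 12551 genes. The gene most like *SLC9A3* in the pancreas was *MYO7B*, an unconventional myosin of the brush border in mammals, with r = 0.92 over 11 libraries. *MYO7B* averaged 4.32 CPM in control and 14.7 CPM in SB pancreas, against 574 and 585 CPM in the jejunum, and it too was a DEG of the study. The 3 genes most like each exchanger had r from 0.95 to 0.96 in the jejunum and from 0.90 to 0.92 in the pancreas. All of them but *MYO7B* are known here by identifier only, since the files do not pair identifiers with symbols.

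Both exchangers varied more between broilers of a diet than most genes did. The SD of log2 CPM within a diet was 0.59 for *SLC9A3* and 0.68 for *SLC9A4* in the jejunum, where the median over 14488 genes was 0.26. In the pancreas it was 1.37 and 1.65, against a median of 0.29 over 14116 genes. Among genes within 2-fold of the same mean level, 93.0% and 91.3% varied less in the jejunum and 94.3% and 92.5% in the pancreas.

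Other transcripts of the jejunum moved with *SLC9A3* in some broilers. A set of 84 genes was picked after their values were seen, as those with at least 100 CPM in the jejunum and at least 50 times the pancreas level, with both exchangers left out. Their summed level in the pancreas, as a percentage of the jejunum mean, was 0.157% to 2.00% in control and 0.235% to 3.74% in SB-fed broilers. The highest values belonged to broilers 34 (3.74%) and 9 (2.00%), which also had the highest pancreas *SLC9A3* of their groups. Among the other SB-fed broilers, the set stood at 0.784% in broiler 41, 0.552% in broiler 3, 0.334% in broiler 11 and 0.235% in broiler 26. On the same scale, *SLC9A3* stood at 6.36% in broiler 34, 3.19% in broiler 3, 1.80% in broiler 41, 1.74% in broiler 11 and 0.832% in broiler 26. It stood at 1.42% in control broiler 9 and at 0.102% in control broiler 47. Control broiler 32 did not follow the set, with *SLC9A3* at 1.23% and the set at 0.343%. The set was higher in control broilers 17 (0.434%) and 39 (0.385%), whose *SLC9A3* was lower (0.562% and 0.748%). *SLC9A4* stood far above the set in most pancreas libraries, at 130% in broiler 3, 63.9% in broiler 11 and 19.1% in broiler 32, but at 2.74% in broiler 34. That contrast followed from the choice of the set, which was limited to genes low in these same pancreas libraries. *SLC9A4* did not meet that limit, with means of 4.29 CPM in the jejunum and 1.06 CPM in the pancreas. The pancreas libraries of broilers 34 and 9 were also left out together, a choice made after the data were seen. The diet difference was then 1.70 for *SLC9A3* and 3.10 for *SLC9A4*, both past the study's thresholds. Exact permutation tests gave p = 0.0476 and p = 0.0397. Broiler 34 had the lowest *SLC9A4* of the SB pancreas libraries (0.119 CPM), so leaving it out by itself raised the *SLC9A4* difference. In the jejunum, the set was lowest in broilers 39 (54.7% of the mean) and 3 (59.8%), which also had the lowest *SLC9A3*. The part of jejunum-like RNA in these differences was not tested beyond these values.

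**Figure D5:**
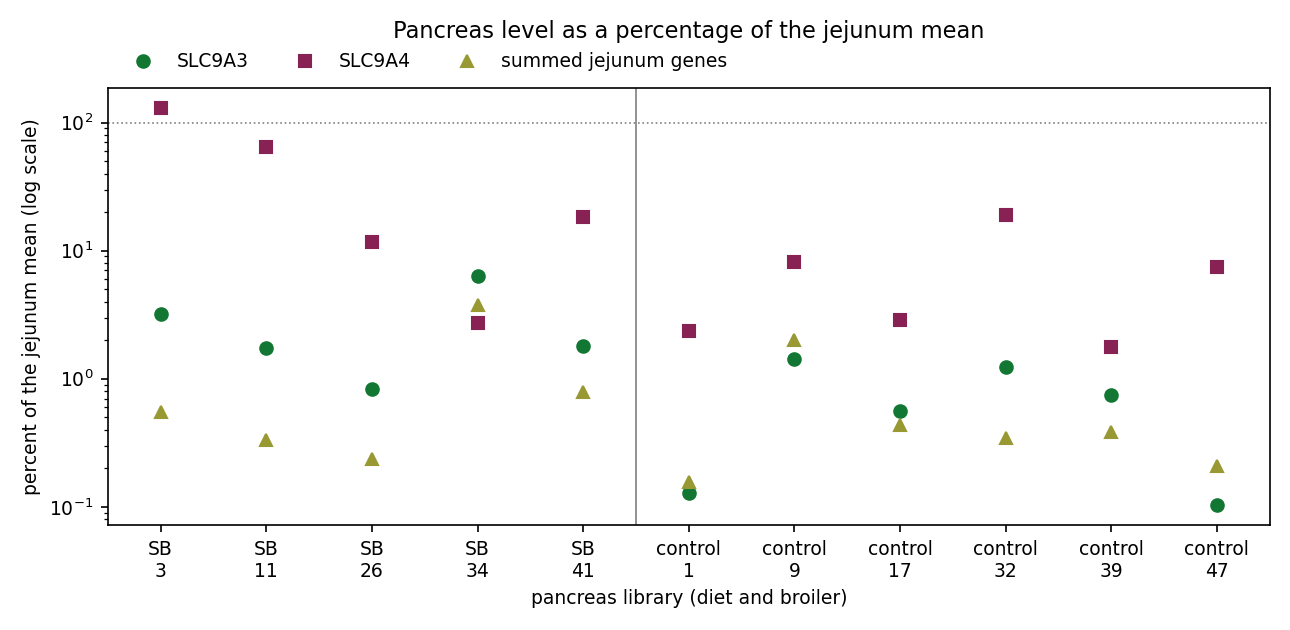
Level in each pancreas library as a percentage of the mean of the jejunum libraries (log axis) for *SLC9A3*, *SLC9A4* and the summed 84 jejunum genes, SB-fed broilers on the left and control broilers on the right. The dotted line marks 100%. *SLC9A4* reaches 130% in broiler 3, while the summed genes, which were chosen for a low pancreas level, lie between 0.157% and 3.74%.

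Few relatives and marker genes could be placed beside the pair, because only the study's own DEG tables linked symbols to identifiers. Of 13 listed sodium-proton exchangers, only *SLC9A3* and *SLC9A4* were linked, and 0 of 19 partners and regulators and 0 of 16 other sodium transporters were. *CA7*, a carbonic anhydrase and 1 of 19 listed genes of chloride and bicarbonate transport, was linked through the jejunal DEG table, so that its passing the same thresholds there was fixed by the link. It averaged 48.4 CPM in control and 22.8 CPM in SB jejunum (log2 fold change -1.10, adjusted p = 1.00, edgeR). Of the marker lists, 1 of 26 enterocyte genes (*MYO7B*), 2 of 9 goblet and mucous genes (*AGR2* and *TFF3*), 1 of 9 gastric genes (*GHRL*, the gene of ghrelin), 2 of 10 pancreatic duct genes (*SPP1* and *SCTR*, the secretin receptor) and 3 of 5 striated muscle genes (*MYH7*, *TTN* and *MYOM2*) were linked. None of the 21 acinar, 8 endocrine, 5 smooth muscle and 6 blood markers was (0 in each list), so the tissue labels were not checked against acinar or islet genes. As a consequence of how they were linked, all these markers were DEGs of the study in the pancreas, and their direction there is no independent evidence. By the thresholds, 8 of the 9 were higher in SB-fed broilers, and *MYH7* was lower. For *TTN* only broiler 41 (96.3 CPM) stood above the control range of 5.60 to 10.7 CPM. The other SB libraries lay within it, at 6.47 to 8.58 CPM.

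In the pancreas, broiler 3 was high in several of these markers together with *SLC9A4*, but other SB-fed broilers were high in them too. The markers could be linked only as DEGs, most of them higher in SB. Levels of SB-fed broilers above the control range were therefore favoured by the link and are no independent evidence of a shared pattern. *AGR2*, which encodes a protein of mucus-secreting cells, stood at 22.0 CPM in broiler 3 and 21.8 in broiler 41, against 1.64 to 7.68 CPM in the control pancreas. *AGR2* was above that range also in broilers 34 (9.74 CPM) and 11 (8.64 CPM), but not in broiler 26 (3.75 CPM). Of these, broiler 34 had *SLC9A4* as low as the controls (0.119 CPM). *SCTR* stood at 6.54 CPM in broiler 3 and 5.76 in broiler 11, the broilers highest in *SLC9A4*. It also stood at 4.97 CPM in broiler 41, whose *SLC9A4* lay within the control range. In broiler 34 it stood at 1.33 CPM, against 0.622 to 2.14 CPM in the controls. *SCTR* was not particular to the pancreas, with means of 7.36 CPM in control and 8.80 CPM in SB jejunum. The pancreas means were 1.32 and 4.11 CPM. *SPP1*, the other linked duct gene, was highest in broiler 41 (41.8 CPM), followed by broilers 3 (20.6), 11 (12.8) and 26 (10.3). The controls ran from 3.98 to 10.1 CPM. *TFF3*, a secreted peptide of mucous epithelia, stood at 4.05 CPM in broiler 3, against 0.207 to 0.460 CPM in the controls. The gastric gene *GHRL* stood at 10.8 CPM in broiler 11, 6.88 in broiler 3, 4.88 in broiler 34 and 4.39 in broiler 26. The controls ran from 0.994 to 4.32 CPM. Of the muscle genes, *MYOM2* was highest in broiler 3 (1.27 CPM, controls 0 to 0.601). It was above that range also in broilers 34 (0.952 CPM), 41 (0.795) and 26 (0.734), but not in broiler 11 (0.206). *TTN* of broiler 3 (8.31 CPM) lay within the control range of 5.60 to 10.7 CPM. *MYH7* of broiler 3 (0.112 CPM) lay below the control range of 0.358 to 1.18 CPM. So did that of broilers 34 (0.130 CPM), 26 (0.275) and 11 (0.289), but not that of broiler 41 (0.547). Whether these cell types bear on the *SLC9A4* levels was not tested.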

How the data were processed

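Jejunum and pancreas RNA was sequenced after Illumina stranded mRNA preparation. Trimmomatic was used for trimming, STAR for alignment to GRCg7b and HTSeq for counting, outlier samples were excluded, and the authors deposited raw counts per gene. The authors also deposited log2 values, which equalled log2 CPM with TMM factors and a prior count of 2 computed from the counts (374154 of 374154 values within 1e-05). Submitters' processing notes name DRAGEN, Trimmomatic and edgeR.

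All results were computed from the counts in R 4.3.3. Diets were compared within each tissue, and tissues and the interaction in 1 fit over 4 groups, by the quasi-likelihood test of edgeR 4.0.16 (filterByExpr with minimum count 10 and minimum total 15, TMM, no robust estimation). The filter left 14488 jejunum, 14116 pancreas and 15032 joint genes, and both exchangers passed it in each fit. Benjamini-Hochberg adjustment ran over all genes tested. Single values were tested by exact permutation on log2 CPM. DESeq2 1.42.0, limma-voom (limma 3.58.1), other scalings, no filter, thinning, blocks and left-out libraries were alternatives. Tested on simulated data, the pancreas fit recovered 188 of 200 changed genes with 10 false calls among 14280 genes. The changed genes were taken from those with enough expected counts, and their median estimated log2 fold change was 1.99 in size. Each simulated gene had the spread typical of its level. The recovery therefore does not apply to genes as low or as variable as the exchangers in the pancreas.

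Genes named were the pair, the 3 genes most correlated with each in a tissue, and listed genes that passed a diet call or led their list in level. The members and lists were chosen with earlier results of these data known. Symbols were linked by matching the fold changes and P-values of the study's DEG tables to a fit of these counts (41 of 41 jejunum and 123 of 125 pancreas entries had 1 match), and those values were used for nothing else. The RefSeq table held 0 Ensembl links. Unused sample columns numbered 0. Within a tissue, each library comes from a broiler of its own, 1 per pen. Same-numbered jejunum and pancreas libraries deviated together only weakly (r from -0.01 to 0.28, over 0.1 in 5 of 10 broilers). Only 2 of 10 jejunum libraries best matched the pancreas library of their own number, so these values do little to back the reading as the same animal.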

Additional observations from a re-analysis of the deposited data

Results flagged for a closer look

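The test of whether the diet effect differed between the tissues gave an unadjusted P under 0.05 for both exchangers. Low values were favoured, since the study had listed both genes as DEGs from these same pancreas libraries, so they are not independent evidence. Pancreas minus jejunum, it differed by a log2 value of 2.17 for *SLC9A3* (adjusted p = 1.00, edgeR) and of 3.06 for *SLC9A4* (adjusted p = 1.00, edgeR) over 22 libraries, and neither passed after adjustment over 15032 genes. Of 16 groups of values checked for a library far from the others, none stood out (0 of 16).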

How the results depend on the processing

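In the edgeR fits, *SLC9A3* and *SLC9A4* kept their direction in the pancreas and in both tissue comparisons under each setting run, and their calls except as follows. Limma-voom lost the pancreas call of *SLC9A4* (2.36). A tissue call for *SLC9A4* in SB-fed broilers was gained without pancreas SB replicate 1 (1.82) and with library totals (2.43), as the median of all genes moved to 1.58 in control and 1.73 in SB-fed broilers. Library totals called 11198 genes between tissues in control (10429 higher in jejunum) and 11927 in SB-fed broilers (11246 higher in jejunum), against 5946 (3085) and 5785 (3172) with TMM. Pancreas diet calls numbered 155, but 100 with limma-voom, 332 without a filter and 299 in 1 fit over both tissues. Jejunum diet calls numbered 49, but 148 without a filter. DESeq2 called 1 interaction, edgeR 0. The replicate number as a block changed no diet call of the pair (*SLC9A3* 2.30 and *SLC9A4* 2.26 in the pancreas, 123 pancreas and 43 jejunum calls). Replicate numbers did not pair the diets, with r from -0.52 to 0.28 in the jejunum and from -0.58 to 0.25 in the pancreas, and 0 of 5 numbers best matched their own in either tissue. Without diet centring, r of *SLC9A3* between tissues was -0.0795. Leaving out libraries with extreme jejunum-gene levels, chosen after seeing the data, gave log2 ratios between diets of -0.0429 (jejunum) and -0.74 (pancreas), r = -0.48 in the jejunum, and a permutation difference of 2.88 for *SLC9A4* in the pancreas (exact p = 0.0397). Leaving out 1 library at a time gave 44 to 83 jejunum calls (83 without jejunum SB replicate 1) and 144 to 236 pancreas calls (236 without pancreas SB replicate 1). The tissue difference of *SLC9A4* in SB-fed broilers then ran from 0.62 to 1.82, the highest value being the 1 called. Permutation differences in the pancreas ran from 1.79 to 2.55 for *SLC9A3* and from 1.41 to 2.75 for *SLC9A4*, and the pancreas log2 ratio between diets from -0.92 to 0.66. Within-broiler diet differences ran from -2.42 to -1.34 for *SLC9A3* and from -3.09 to -1.42 for *SLC9A4*. The r of the pair ran from 0.28 to 0.72 in the jejunum and from -0.12 to 0.44 in the pancreas, and r between tissues from -0.31 to 0.45 for *SLC9A3* and from -0.41 to 0.62 for *SLC9A4*. The cause of these changes was not tested. Low pancreas counts, down to 4, limit what single libraries show.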
